A study of Mus musculus with 6 samples.

Results

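The 10 genes described here encode the enzymes and regulators of polyamine synthesis and breakdown: Odc1, Amd1, Srm and Sms for synthesis, Smox, Sat1 and Paox for breakdown, and Oaz1, Oaz2 and Azin1 for the antizyme system. They are 10 of the 23349 genes of the deposited table and were found there by their symbols. The list was chosen from the pathway, and Smox entered it because it stands on the authors' core list of 57 genes, selected on the same comparison of induced with basal cells. Sat1 stands on that core list too. The values of Smox and Sat1 are therefore given as a description, with no p-value, and nothing is read from them about the pathway. Both stayed in the fit over all genes, where their calls support nothing about them.

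AtT-20 iPAM cells derive from a corticotrope tumour of the mouse pituitary and carry an inducible PAM, the enzyme that amidates peptides in the secretory pathway. Both groups grew in the same serum-containing medium with G418 and hygromycin. The 3 induced libraries came from cells kept for 48 h in doxycycline (4 micrograms per ml), the 3 basal libraries from cells without it, so doxycycline and raised PAM cannot be told apart. Whether the libraries within a group were separate cultures is not stated in the labels, and a p-value here reflects only the variation among these 6 libraries, possibly technical.

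Polyamines are small, positively charged molecules that bind nucleic acids and are needed for growth and protein synthesis. Ornithine decarboxylase (Odc1) makes putrescine, spermidine synthase (Srm) turns putrescine into spermidine, and spermine synthase (Sms) turns spermidine into spermine, with the propylamine groups coming from S-adenosylmethionine through its decarboxylase (Amd1). Breakdown runs through the acetyltransferase encoded by Sat1, whose products leave the cell or are oxidised by Paox in peroxisomes, and through spermine oxidase (Smox), which acts on spermine directly and releases hydrogen peroxide. Antizymes (Oaz1 and Oaz2) bind ornithine decarboxylase and send it to the proteasome, and the antizyme inhibitor Azin1, a relative of the decarboxylase without its activity, takes antizyme away from it. Much of this control acts on translation and protein turnover, which transcript levels do not show.

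Levels are taken as TPM, a measure of relative transcript abundance that sums to 1000000 in each library and carries no depth of its own. Because amplicon reads do not scale with transcript length, a level is compared across libraries and not between genes. Libraries are named basal 1 to 3 and induced 1 to 3 after the table's columns. Pam, the induced gene, stood at 66.9 to 92.6 TPM in basal and 258 to 507 TPM in induced libraries. All 6 corticotrope markers examined, Pomc and Tbx19 among them, were present. Their summed levels were 23120 to 32110 TPM in basal and 21560 to 30490 TPM in induced libraries. Most of these sums was Pomc, at 21920 to 31050 TPM in basal and 20450 to 29240 TPM in induced libraries. Of 9 markers of other pituitary cells, Tshb, Fshb and Pou1f1 were listed at 0 throughout and 7 were under 1 TPM in every library. Sox2 was present in every library, at 7.76 to 13.4 TPM in basal and 5.68 to 12.6 TPM in induced libraries. Lhb reached 1.19 TPM in basal 2. The sums of this list, mostly Sox2, were 8.82 to 13.8 TPM in basal and 5.76 to 12.9 TPM in induced libraries. Of 6 markers of fibroblasts, endothelium and blood, 5 were found in the table, with Cdh5 at 0. These summed to 3.43 to 4.76 TPM in basal and 1.76 to 2.18 TPM in induced libraries. Most of these sums was Col1a1, at 2.52 to 4.03 TPM in basal and 1.33 to 1.76 TPM in induced libraries. The sums of the second list overlap between the groups, while those of this last list do not, and their part in the results was not tested.

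The 250 bases before the start are shown for Smox and Sat1, since both were lower in every induced library. Both stretches are from RefSeq (GRCm38.p6, the mm10 assembly the submitters name), for Smox on the plus strand at chr2:131491612-131491861 and for Sat1 on the minus strand at chrX:155216450-155216699. The Smox stretch lies inside the GENCODE span of the gene, which begins at 131491496, so the start used is later than that of GENCODE. Capitals mark the single motif found in them, TGACNNNGC, the core of the antioxidant response element.
Smox: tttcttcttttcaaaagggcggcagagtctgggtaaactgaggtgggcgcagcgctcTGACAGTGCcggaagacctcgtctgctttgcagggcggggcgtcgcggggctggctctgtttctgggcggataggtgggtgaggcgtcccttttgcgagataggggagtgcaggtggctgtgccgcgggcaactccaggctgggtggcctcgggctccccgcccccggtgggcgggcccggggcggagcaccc
Sat1: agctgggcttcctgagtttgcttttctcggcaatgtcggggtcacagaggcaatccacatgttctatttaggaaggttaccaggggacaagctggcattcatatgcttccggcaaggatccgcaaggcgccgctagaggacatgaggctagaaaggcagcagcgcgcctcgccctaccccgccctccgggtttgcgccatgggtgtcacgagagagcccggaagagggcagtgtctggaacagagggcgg

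The sequence table matched 8 of the 10 members, and Azin1 and Srm were not matched. In the window from 250 bases before to 50 after each start, on both strands, the Smox match began at position -193 relative to the RefSeq start, and Oaz1 held the same core at position -13. That core occurs in 12.4% of the 32851 promoters of the table. The E-box CACGTG, the site bound by Myc, was found in 1 member, at 1 of the 2 Sms starts, and occurs in 7.15% of promoters. The AP-1 site TGACTCA was found in 0 members and occurs in 5.20% of promoters. Like the Smox start, those used for Odc1, Oaz2 and Paox and the Sms start without the E-box lay inside the GENCODE spans of their genes. A match describes these letters in this window and is no evidence of a bound factor.

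Among the breakdown enzymes, Smox and Sat1 were lower in every induced library, while Paox differed little between the groups. Smox lies on chromosome 2 from 131491496 to 131525922 on the plus strand (mm10, GENCODE gene ENSMUSG00000027333.18). It stood at 90.4, 103 and 105 TPM in the basal libraries and at 32.6, 34.3 and 31.9 TPM in the induced ones. The groups lay far apart, and the lowest basal library was above the highest induced one by more than the range of either group. The means were 99.5 ± 7.93 and 32.9 ± 1.26 TPM (SD, n = 3), a 3.02-fold lower level in induced cells. In log2(TPM + 1), induced minus basal, this is a difference of -1.56 (SE 0.13).

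Sat1, on chromosome X from 155213132 to 155216449 on the minus strand (ENSMUSG00000025283.15), stood at 345, 330 and 335 TPM in basal and at 183, 185 and 173 TPM in induced libraries. Its groups were also apart, with little spread within either. The means of 337 ± 7.89 and 180 ± 6.25 TPM (SD, n = 3) gave a 1.87-fold lower level in induced cells and a log2 difference of -0.90 (SE 0.11). The authors' deposited tables give Smox a log2 fold change of -1.56 in the limma table and -1.19 in the DESeq2 table, and Sat1 -0.90 and -0.48. In the authors' deposited table from Cuffdiff, Sat1 stands at 170 FPKM in basal and 92.7 FPKM in induced cells, a log2 fold change of -0.88. Sat1 is the 1 member found by symbol among the 1548 rows of that table, and Smox was not found there. Of the members, the limma and DESeq2 tables hold only Smox and Sat1. Over the 195 genes of the authors' deposited table from DESeq2, the median of the gene-by-gene differences from the present log2 values was 0.43, and its cause was not tested.

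Paox, on chromosome 7 from 140115799 to 140137224, was measured at 14.4, 13.5 and 13.0 TPM in basal and at 13.5, 11.2 and 15.4 TPM in induced libraries. The induced libraries spanned the basal ones on both sides. The means were 13.6 ± 0.690 and 13.3 ± 2.11 TPM (SD, n = 3), and the log2 difference of -0.04 (95% confidence interval -0.42 to 0.35) did not pass the threshold (limma adjusted p = 0.958).

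**Figure D1:**
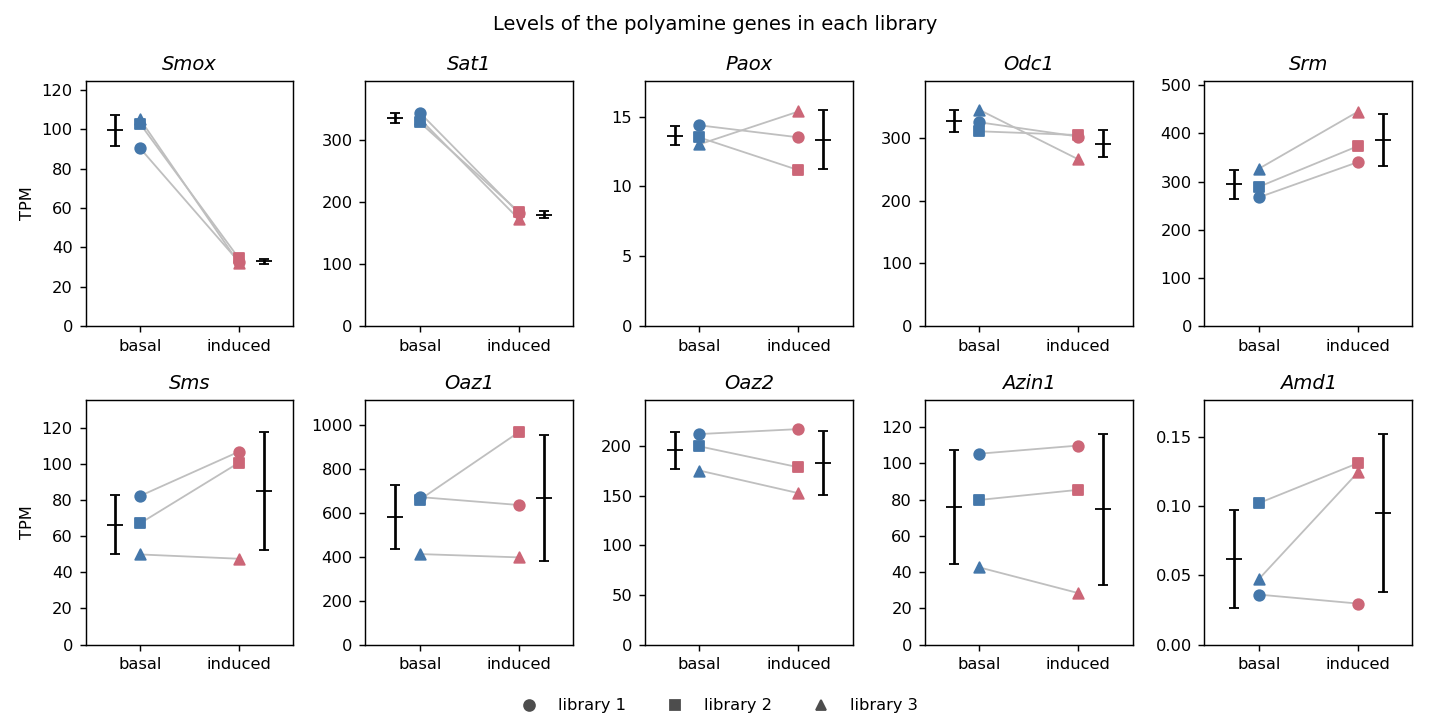
Each panel plots 1 gene, with TPM on a vertical axis from 0 and its own scale, for the 3 basal (blue) and 3 induced (red) libraries; grey lines join libraries with the same column number, and black bars are the mean and SD. Smox (90.4 to 105 against 31.9 to 34.3 TPM) and Sat1 fall apart by group, whereas Azin1, Sms and Oaz1 are lowest in the libraries numbered 3 of both groups.

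Ratios between 2 genes within a library do not depend on the library's scale. Only their difference between the groups is read here, since the size of a ratio also reflects the amplicons. The ratio of Sat1 to Paox was 24.0, 24.4 and 25.8 in basal and 13.5, 16.6 and 11.3 in induced libraries, a mean difference of -0.86 in log2. The ratio of Smox to Sms, the enzymes that remove and make spermine, was 1.10, 1.53 and 2.11 in basal and 0.305, 0.340 and 0.670 in induced libraries, a mean difference of -1.89 in log2.

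Smox was also lower relative to Sat1, with ratios of 0.262, 0.312 and 0.314 in basal and 0.179, 0.186 and 0.184 in induced libraries. The groups of these 3 ratios did not overlap, and they carry no test because each holds Smox or Sat1. The 3 ratios without either gene overlapped between groups. For Odc1 to Oaz1 the log2 difference was -0.31, for Odc1 to Azin1 -0.03 and for Srm to Sms 0.09 (exact two-sided permutation tests, p = 0.5, 1.0 and 0.9, each 1.0 after Benjamini-Hochberg adjustment over these 3 tests). Leaving out 1 library moved them from -0.57 to -0.03, from -0.55 to 0.38 and from -0.39 to 0.39, so the second and the third changed sign. With 3 libraries against 3 the smallest p such a test can give is 0.1.

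**Figure D2:**
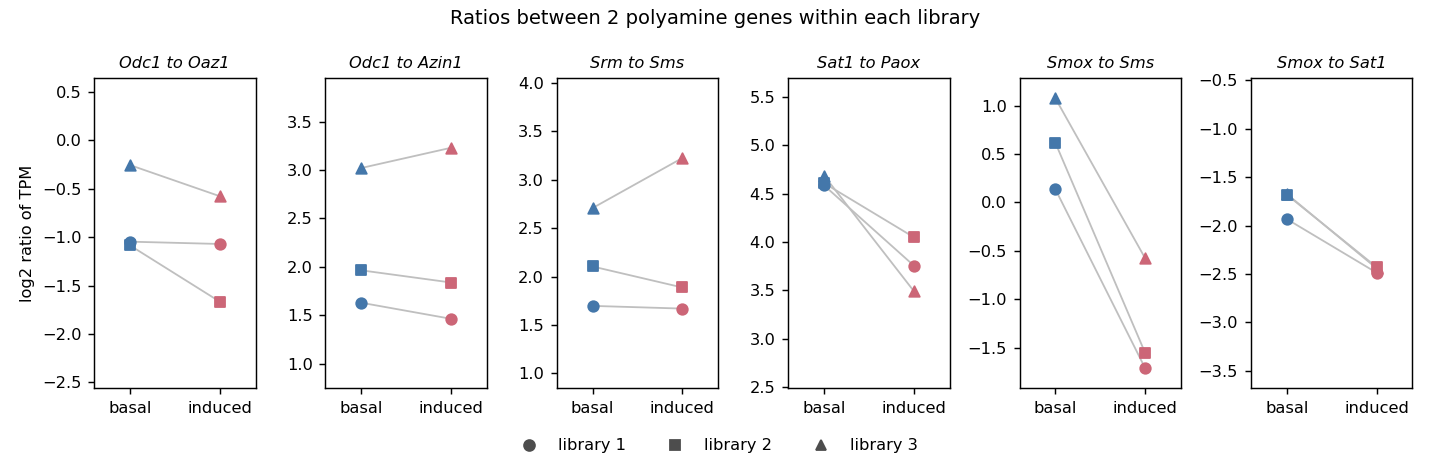
Each panel plots the log2 ratio of TPM of 2 genes within each library, on vertical axes of equal span, for basal (blue) and induced (red) libraries joined by column number. The ratios with Smox or Sat1 on top are lower in all induced libraries (a log2 difference of -1.89 for Smox to Sms), and the 3 others overlap.

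On the synthesis side neither fit called Odc1 or Sms, and the call of Srm depended on the fit. Odc1, the entry enzyme, lies on chromosome 12 from 17544794 to 17551505. It stood at 326, 311 and 346 TPM in basal and at 303, 305 and 266 TPM in induced libraries. Every induced library was below every basal one, by a narrow margin. The means were 327 ± 17.3 and 291 ± 21.7 TPM (SD, n = 3), and the log2 difference of -0.17 (95% confidence interval -0.45 to 0.11) did not pass (limma adjusted p = 0.610, and adjusted p = 0.213 with the block). Of the 50-base words of the longest Odc1 transcript, 42.2% also occur in transcripts of 16 other genes, so reads of near-identical copies may enter its value.

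Srm, on chromosome 4 from 148591503 to 148594993, stood at 267, 289 and 327 TPM in basal and at 340, 374 and 445 TPM in induced libraries. All induced libraries were above all basal ones, and within both groups the order followed the column number. The means were 294 ± 30.1 and 386 ± 53.5 TPM (SD, n = 3), 1.31-fold higher in induced cells. The log2 difference was 0.39 (SE 0.15), with limma adjusted p = 0.284, and adjusted p = 0.00841 with the block. Within column numbers the induced level was 1.27, 1.29 and 1.36 times the basal one. With every log2 difference shifted by the 0.43 offset of the authors' DESeq2 table, Srm stood at 0.81 and passed (limma adjusted p = 0.0214). That shift called 2352 of the 12400 genes higher, so this pass is not read as support for Srm. The direction was positive under all 15 alternatives run, with log2 differences of 0.28 to 0.81 and limma adjusted p between 0.00841 and 0.646. The block, the filter settings and the fit without a trend leave the difference at 0.39, and that shift can only raise it. These settings therefore do not test its direction.

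Sms, on chromosome X from 157443855 to 157492287, stood at 82.4, 67.2 and 49.97 TPM in basal and at 107, 101 and 47.6 TPM in induced libraries. Its groups overlapped because the libraries numbered 3 were the lowest in each group. The log2 difference was 0.29 (95% confidence interval -0.51 to 1.09; limma adjusted p = 0.786, and adjusted p = 0.121 with the block). A pseudogene, Sms-ps, shares 28.7% of the 50-base words of its longest transcript.

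Amd1 was listed at 0.0361, 0.102 and 0.0474 TPM in basal and at 0.0296, 0.131 and 0.125 TPM in induced libraries, below the level tested. Amd2, a near copy also on chromosome 10, was listed at 94.96, 81.8 and 60.1 TPM in basal and at 119, 101 and 62.3 TPM in induced libraries. Of the 50-base words of the Amd1 transcript, 86.1% also occur in Amd2, so these rows may not tell transcripts of the 2 genes apart. Where the amplicons lie was not examined. For Amd2 the log2 difference was 0.23 (95% confidence interval -0.43 to 0.88; limma adjusted p = 0.805), and the groups overlapped.

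In the antizyme system no member passed the threshold with or without the block. Azin2, a further antizyme inhibitor that is not a member, is described below with the ornithine supply list. Oaz1, on chromosome 10 from 80826656 to 80829290, stood at 672, 660 and 412 TPM in basal and at 636, 967 and 397 TPM in induced libraries. Induced 2 was the highest of the 6 and the libraries numbered 3 the lowest, so the groups overlapped widely. The log2 difference of 0.14 had a 95% confidence interval of -0.67 to 0.95 (limma adjusted p = 0.927), and its sign turned without basal 3 (-0.09) and without induced 2 (-0.18). Of its transcript's 50-base words, 52.2% also occur in the pseudogene Oaz1-ps.

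Oaz2, on chromosome 9 from 65668001 to 65690300, stood at 212, 200 and 175 TPM in basal and at 217, 179 and 153 TPM in induced libraries. The groups overlapped, and in both the level was highest in library 1 and lowest in library 3. Its log2 difference was -0.11 (95% confidence interval -0.50 to 0.28; limma adjusted p = 0.858). Azin1, on chromosome 15 from 38487427 to 38519266, was measured at 105, 79.8 and 42.6 TPM in basal and at 110, 85.4 and 28.4 TPM in induced libraries. The basal libraries differed 2.47-fold among themselves and the induced ones 3.87-fold, more than for any other tested member. The log2 difference of -0.14 had the widest interval of the tested members, from -1.41 to 1.14 (limma adjusted p = 0.956), narrowing to -0.44 to 0.16 with the block.

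Of the 10 members, 9 reached the mean of 1 TPM required for the fit, and 7 of these are not on the core list. Without the block 0 of the 7 passed the limma threshold and 1, Srm, had an unadjusted p under 0.05, where 1.06% of the 12400 genes tested were called lower and 0.129% higher. With the block 0 of the 7 were called lower and 1, Srm, higher, where 14.0% of all genes were called lower and 8.23% higher. Groups did not overlap for 1 of the 7 on the lower side (Odc1) and for 1 on the higher side (Srm), against 12.6% and 9.04% of all genes. With 1 of 7 at most in a direction, these counts are not read as a result about the members. The median log2 difference of all 9, Smox and Sat1 included, was -0.11, beside -0.04 over all genes tested. Of the 7, 4 differences were negative and 3 positive.

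**Figure D3:**
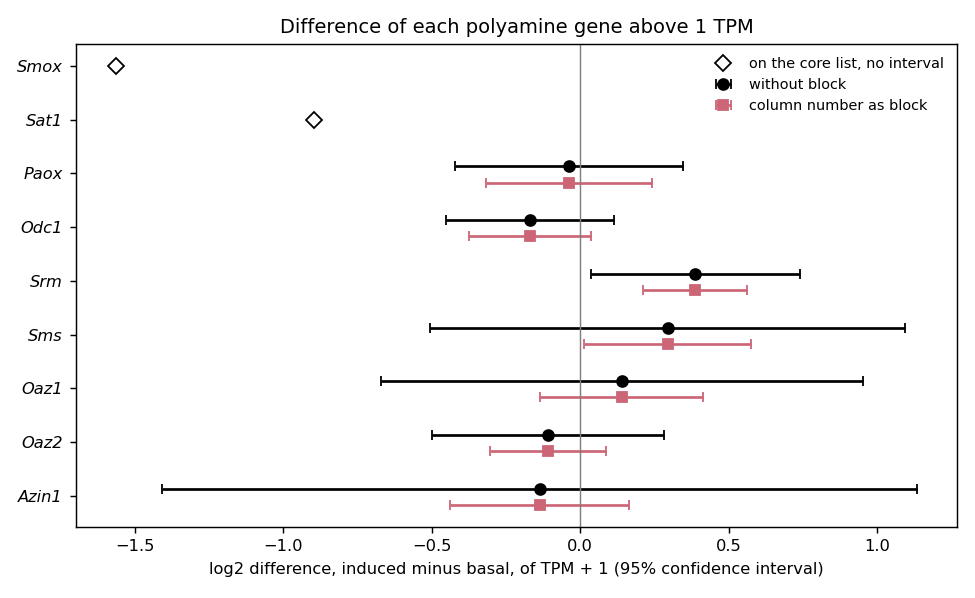
The log2(TPM + 1) difference, induced minus basal, is plotted for the 9 members above 1 TPM; open diamonds without an interval are Smox (-1.56) and Sat1 (-0.90), which are on the core list. The other 7 have 95% confidence intervals not adjusted for the number of genes, without the block (black) and with the column number as a block (red); Srm (0.39) lies to the right of 0, and Azin1 and Oaz1 have the widest intervals without the block.

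Around the pathway, 52 further genes were examined in 6 lists, and 39 reached the level tested. Without the block 1 of them passed the threshold, the transcription factor Myc, an activator of Odc1. It fell from 14.6, 17.5 and 13.8 TPM to 2.34, 4.15 and 2.52 TPM, a log2 difference of -2.04 (SE 0.21, limma adjusted p = 0.0173, and above the threshold at up to 0.158 without basal 1, basal 2, basal 3, induced 1 or induced 2). Odc1 had a log2 difference of -0.17 in the same libraries. With the block 9 of the 39 were lower and 1 higher, beside the 14.0% and 8.23% of all genes.

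The list named ornithine supply also held Azin2, and 5 of its 9 genes were tested, with a median of -0.28. Azin2, an antizyme inhibitor related to Azin1 and not a supplier of ornithine, had the largest difference of the list (-0.97). It averaged 12.8 ± 3.10 TPM in basal and 6.14 ± 2.17 TPM in induced libraries (mean ± SD, n = 3; limma adjusted p = 0.159, and adjusted p = 0.00141 with the block). Oat, which interconverts ornithine and a glutamate precursor, averaged 224 ± 25.1 TPM in basal and 156 ± 24.1 TPM in induced libraries (mean ± SD, n = 3; limma adjusted p = 0.194, and adjusted p = 0.00320 with the block). The arginase genes Arg1 and Arg2 were at or near 0 and at 1.13 to 2.51 TPM.

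Another list joined relatives of the breakdown enzymes with other genes, an antizyme and Hmox1 among them. Of its 8 genes 6 were tested, with a median of -0.14. Hmox1, the stress-induced haem oxygenase and not a relative of these enzymes, averaged 137 ± 13.3 TPM in basal and 86.4 ± 8.23 TPM in induced libraries (mean ± SD, n = 3; limma adjusted p = 0.0810, and adjusted p = 0.00117 with the block). The amine oxidase Aoc2 averaged 26.2 ± 0.771 TPM in basal and 20.8 ± 1.06 TPM in induced libraries (mean ± SD, n = 3; limma adjusted p = 0.301, and adjusted p = 0.0467 with the block). Sat2, the relative of Sat1, overlapped between the groups at 2.70 to 7.78 TPM in basal and 3.78 to 5.33 TPM in induced libraries.

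Spermidine is the source of hypusine, the modified residue that the translation factor eIF5A needs. Of the 4 genes of this step, all tested with a median of 0.00, Dohh, the hydroxylase that completes hypusine, averaged 140 ± 9.17 TPM in basal and 177 ± 16.0 TPM in induced libraries (mean ± SD, n = 3; limma adjusted p = 0.283, and adjusted p = 0.0293 with the block). Dhps, the enzyme of the preceding reaction, and Eif5a overlapped between groups, with log2 differences of -0.03 and 0.03.

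The methionine cycle and salvage list had a median of -0.06 over 12 of 13 genes, with 6 negative and 6 positive. Its 1 gene past the threshold with the block was Ahcyl2, a relative of adenosylhomocysteinase, with means of 34.8 ± 7.17 and 26.9 ± 6.60 TPM (mean ± SD, n = 3; limma adjusted p = 0.549, and adjusted p = 0.0259 with the block). Of the transport list 6 of 12 genes were tested, with a median of -0.29, and Slc3a2, an amino acid transporter subunit, was the 1 past the threshold with the block (323 ± 72.8 TPM in basal, 252 ± 98.6 TPM in induced libraries, mean ± SD, n = 3; limma adjusted p = 0.661, and adjusted p = 0.0398 with the block). Its lowest library was induced 3, at 138 TPM, and the log2 difference of -0.43 was -0.043 without it and -0.27 without basal 1. That of Ahcyl2, -0.36, was -0.20 without induced 3 and -0.23 without basal 1. The 6 transcription factors had a median of -0.33 and were all negative, where 55.1% of all genes tested were. Max, Nfe2l2 and Sp1, with log2 differences of -0.12, -0.07 and -0.16, did not pass (limma adjusted p = 0.881 to 0.908). Beside Myc, Mxd1, a Max-binding repressor, had means of 7.72 ± 2.04 and 4.24 ± 1.19 TPM and Mycn 15.85 ± 2.95 and 11.3 ± 4.37 TPM (mean ± SD, n = 3; limma adjusted p = 0.227 and adjusted p = 0.526, and adjusted p = 0.00523 and adjusted p = 0.0393 with the block). The log2 difference of Mycn, -0.51, was -0.18 without induced 3.

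**Figure D4:**
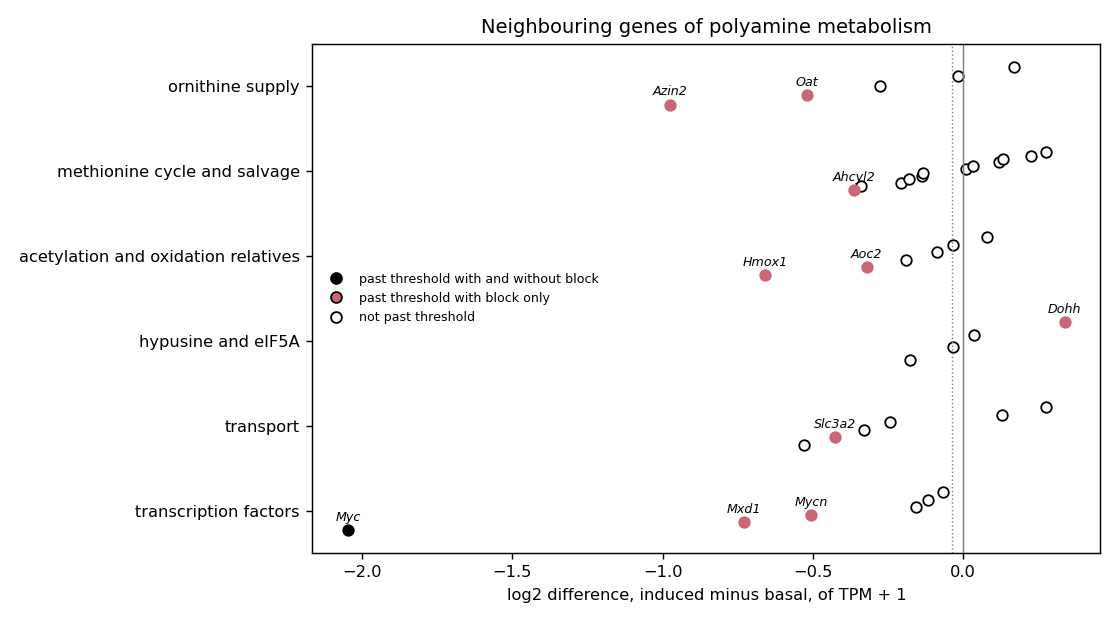
Each point is 1 tested gene of the 6 neighbouring lists, placed by its log2(TPM + 1) difference, induced minus basal; the dotted line is the median over all genes tested (-0.04). Black marks the gene past the threshold with and without the block (Myc, -2.04), red the genes past it with the block alone, and white the remainder.

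The genes whose pattern over the 6 libraries was most like that of Smox were found by the root mean square difference in log2(TPM + 1), each gene taken relative to its basal mean, among the 10482 genes averaging 5 TPM or more. The nearest was Maff, a small Maf transcription factor, at a distance of 0.0994 and with means of 96.4 ± 2.36 and 33.2 ± 1.70 TPM. It was followed by Fos (0.138), an immediate early factor, Nr1d1 (0.140), a circadian repressor, Ppp1r16b (0.143), a phosphatase subunit, and Hilpda (0.146), a lipid droplet protein induced by hypoxia. Their log2 differences ran from -1.41 to -1.71, beside -1.56 for Smox. For Odc1, whose level moved little, the nearest were Zhx2, Nxph1, Wbp11, Lrrfip2 and Cfl1, at distances of 0.0330 to 0.0443. Likeness was computed from the same 6 libraries and has no test.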

How the data were processed

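Per the labels' protocols, RNA was extracted with Trizol from dense wells and libraries were made with an AmpliSeq kit, which amplifies chosen stretches of transcripts. The submitters' processing notes name build mm10, TopHat2 2.0.9 with Bowtie2 2.1.0.0 and, for expression, limma, DESeq2, Cuffdiff 2.2.0 and Cufflinks 2.2.0. Settings and annotation: not given in the sources used here. By name, the authors called the deposited table of levels FPKM. Every library in it sums to 1000000, so its values are treated as TPM, though the sum alone does not fix the unit. Such a scale keeps no depth and gives no counting error. Per the file headers, the authors' tables hold log2 fold changes and p-values or q-values from limma, DESeq2 and Cuffdiff, the last with an FPKM value per group. The deposited core list holds gene symbols, with no score or other number.

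Of 23349 genes in the sheet, the 12400 averaging 1 TPM or more were fitted as log2(TPM + 1) by lmFit and eBayes (trend on) of limma 3.58.1 under R 4.3.3. Adjusted p-values are Benjamini-Hochberg values over all 12400 genes, with a threshold of 0.05. The design had been written for FPKM or TPM values. Ratios within a library were compared with exact two-sided permutation tests in scipy 1.17.1. The unblocked limma fit alone was run on simulated data, with independent noise in each library. That simulation holds nothing shared between libraries of the same number, and covers neither the block nor the permutation tests. Older symbols were matched through RefSeq's synonyms (Azin2 is listed as Adc, Aoc1 as Abp1). Because the labels give libraries letters and the columns carry numbers, a column is tied to its group and not to a sample.

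Over 12400 genes, the deviations from the group means of basal and induced libraries with the same number correlated at 0.461, 0.182 and 0.717 (across genes, which are not independent replicates). All exceed 0.1, the level taken to treat the numbers as pairing the libraries. Basal 1 with induced 2 (0.322) and basal 2 with induced 1 (0.284) also exceeded it, above the value for the libraries numbered 2, so the data set apart the libraries numbered 3 and separate 1 from 2 less clearly. For each gene the deviations of a group cancel, so a likeness of the libraries numbered 3 alone can raise the correlations among the others. The 0.1 level therefore does not establish that the libraries numbered 1 or 2 are paired. The labels do not say what a number shares. A fit with the number as a block was run beside the unblocked one.

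The members, gene lists, motifs and tests were chosen with earlier results of these data known. The genes named are the 10 members, Pam, the genes of each pathway list past the threshold with or without the block (with none, the 2 with the smallest p), and the 5 genes nearest in pattern to Smox and to Odc1. Amd2, Arg1, Arg2, Sat2, Dhps, Eif5a, Max, Nfe2l2 and Sp1 fall outside this rule and were chosen after their values were seen. Alternatives were the block, a pseudocount of 0.1, no filter, a filter at 5 TPM, quantile normalization, median ratio scaling, a shift of every log2 difference by the median offset of the table the authors made with DESeq2, eBayes without a trend, thresholds of 0.1 and 0.01, a shorter promoter window, and leaving out libraries. Protein identities between members were planned and are not analysed here.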

Additional observations from a re-analysis of the deposited data

How the results depend on the processing

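Smox and Sat1, chosen from the same comparison, were the 2 members past the threshold in the limma fit, so these counts support nothing about them; leaving out 1 library gave 0 to 2, the 0 without basal 1, basal 2, induced 1 or induced 2, and a threshold of 0.01 gave 1; with no call, 2 to 3 members had an unadjusted p under 0.05. Against 148 genes past it, there were 2761 with the replicate block, 2476 with every log2 difference shifted by the median offset of the authors' DESeq2 table, 688 without both libraries numbered 3, 93 with a filter at 5 TPM, 394 at a threshold of 0.1, 8 at 0.01 and 0 to 255 without 1 library. The count of 0 came without basal 1, basal 2 or induced 1, with 1130 to 1562 genes at an unadjusted p under 0.05. The block changed no call of a member other than Srm, which also passed with that shift, among 2352 genes called higher by it. Smox, Sat1, Srm and Sms kept their direction under all 15 alternatives, which supports nothing about Smox and Sat1. The block, the filter settings and the fit without a trend leave a difference as it is. Nor can that shift turn a positive difference, so these settings do not test direction for Srm or Sms.

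Small differences changed sign. The shift by the median offset of the authors' DESeq2 table moves the median of all genes to 0.39. Under it, log2 differences turned positive for Paox (0.39), Odc1 (0.26), Oaz2 (0.32), Azin1 (0.29), Ahcyl2 (0.062), Aoc2 (0.11) and Slc3a2 (0.00024). It adds 0.43 to every difference, so a negative one smaller in size than 0.43 must turn positive. These sign changes are therefore arithmetic and do not test direction. The offset comes from 195 genes of a table that, by its name, is cut at a p-value. Whether it holds for the other genes was not tested. Paox was 0.043 after quantile normalization, and Azin1 was 0.079 without both libraries numbered 3. Leaving out 1 library gave -0.14 to 0.076 for Paox, -0.18 to 0.47 for Oaz1, -0.24 to 0.013 for Oaz2 and -0.52 to 0.44 for Azin1. The causes of the sign changes without that shift were not tested. TPM keeps no depth, so the counting error of low genes such as Amd1 is unknown.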
